A study of Mus musculus with 2 samples.

Results

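The interleukins are signalling proteins that leukocytes, epithelial cells and stromal cells use to instruct each other, and each acts through a receptor of 1 or more chains. This account covers the interleukin and interleukin receptor genes of the pregnant mouse uterus. Members were all genes whose symbol is Il followed by a digit, without Il6st, Il6ra, Il11 and the Il11ra genes, which left 78 of 22740 genes in the table. The rule itself uses symbols and no measured value. By textbook role the 78 comprised 36 ligands, 2 ligand-like antagonists, 34 receptor chains, 4 decoy receptors or binding proteins, and 2 genes that belong to neither side.

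RNA was sequenced from whole uterus of 2 C57BL/6 mice labelled WT on day 4 of pregnancy, with 1 library per animal, called uterus 1 and uterus 2, and paired values are always given in that order. All samples form 1 group, with no treatment, transgene or control group named, and the age of the animals is not given in the sources used here. Values are the authors' RPKM, reads scaled to transcript length and library size, so levels can be compared between genes. In whole tissue, fewer cells of a type and less RNA per cell cannot be told apart. The p-values below compare these 2 libraries and no conditions.

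Interleukin receptors fall into families that share parts. IL-1 family receptors carry an intracellular TIR domain and signal through the adaptor MyD88, whereas IL-17 receptors recruit the adaptor Act1. Receptors of the common gamma chain, common beta chain, IL-10, and IL-6 and IL-12 families have no enzyme of their own and signal through JAK kinases and STAT factors. In the uterus, IL-15 is known for supporting uterine natural killer cells, and IL-1 for its part in embryo implantation.

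The 6 markers listed for uterine tissue lay between 1.63 and 115 RPKM in each uterus, including Pgr, Esr1 and Hoxa10. All markers of smooth muscle, epithelium, stroma and endothelium were at 10 RPKM or more in both. Leukocyte markers were also present: Ptprc lay at 17.7 RPKM in uterus 1 and 21.6 in uterus 2. The 3 T cell markers summed to 4.66 and 5.82 RPKM, the 3 NK cell markers to 9.61 and 10.3 RPKM, and the 4 macrophage markers to 115 and 135 RPKM. Reads recovered from the RPKM values summed to 3759367 in uterus 1 and 4177792 in uterus 2. On a transcript of 1000 bases, 1 read was worth 0.261 and 0.235 RPKM.

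Most receptor genes and few ligand genes were detected. At 1 RPKM or more in both uteri, called detected here, were 35 of the 78 members (44.9%), against 58.4% of all genes in the table and 61.6% of those with an NM_ (protein-coding) identifier. Of the 38 receptor, decoy and binding protein genes 26 were detected (68.4%), and of the 38 ligands and antagonists 8 (21.1%). The median receptor-side gene lay at 2.15 RPKM in uterus 1 and 2.95 in uterus 2, and the median ligand-side gene at 0.163 and 0. All 7 members at 10 RPKM or more in both uteri were receptor-side genes, where 30.4% of all genes reached that level. The members together summed to 348 and 354 RPKM, of which Il17rb alone held 28.5% and 29.1%.

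**Figure D1:**
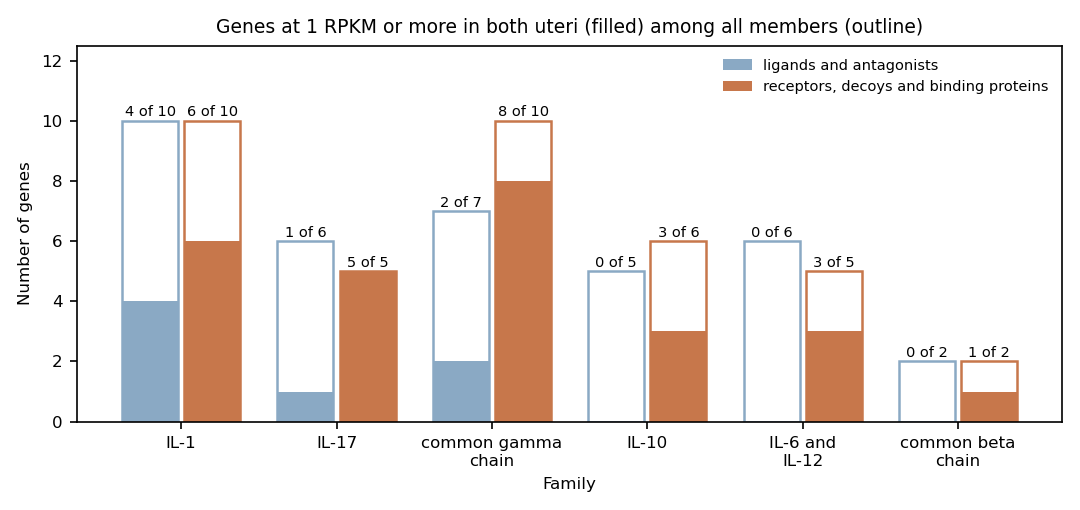
Number of member genes in each family, with ligands and antagonists in blue and receptors, decoys and binding proteins in orange. Outlines show all members and filled bars those at 1 RPKM or more in both uteri, and in each of these 6 families more receptor-side than ligand-side genes were detected. The common gamma chain bars include Il13, Il13ra1 and Il13ra2.

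Il17rb, a receptor chain for IL-17B and IL-25, was the highest member. It lay at 99.3 and 102.8 RPKM, or 101 ± 2.47 RPKM (SD, n = 2), on 785 and 902 reads. That placed it at rank 463 of the 22740 genes, 3.32 times the mean of the next member. Il17rb occupies chr14:30809354-30822082 on the minus strand (mouse build NCBIM37, the deposited start counted from 1).

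Neither of its ligands was detected. Il17b had 1 read in uterus 1 and none in uterus 2. Il25 was listed at 0 in both, which is not read as absence. Il17ra, the shared chain of the family, lay at 7.23 and 5.98 RPKM, below Il17rb in both.

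The other IL-17 receptor chains were all detected. Il17rc, the partner of Il17ra in the receptor for IL-17A and IL-17F, lay at 13.65 and 13.69 RPKM. Il17rd lay at 6.12 and 5.89 RPKM, and Il17re, the receptor chain for IL-17C, at 4.10 and 3.85 RPKM. Il17re and Il17rc are neighbours on chromosome 6. Of the 6 ligands of the family, Il17d alone was detected, at 2.35 RPKM on 11 reads and 2.69 RPKM on 14 reads. Il17a had 1 read and Il17c at least 1 (0.798 RPKM) in uterus 1, both had none in uterus 2, and Il17f was listed at 0 in both.

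The decoy receptor Il13ra2 was the next highest member. It binds IL-13 with high affinity and has a short cytoplasmic tail without the JAK-binding part of its relatives. Il13ra2 (chrX:143818021-143838375, minus strand) lay at 33.5 and 27.5 RPKM, on 197 and 180 reads. Il4ra (chr7:132695796-132722988, plus strand), the signalling chain shared by IL-4 and IL-13, followed at 23.4 and 25.2 RPKM on 457 and 547 reads. Its partner for IL-13, Il13ra1, lay at 12.03 and 14.15 RPKM. The values of Il13ra2, Il4ra and Il13ra1 kept the same order, and the decoy was highest in each uterus. In uterus 2, however, the 95% Poisson intervals of Il13ra2 (23.7 to 31.9 RPKM) and Il4ra (23.2 to 27.4 RPKM) overlapped.

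The cytokines of this pair of receptors were scarce. Il4 lay at 0.309 and 0.836 RPKM, on at least 1 and 3 reads, and Il13 had 1 read and none. Both lie with Il5 in a cluster on chromosome 11, and Il5 had 2 reads in uterus 1 and none in uterus 2.

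The starts of the 3 highest members are shown with their CpG content, a sequence feature that many broadly active promoters share. Each sequence covers 250 bases before and 50 bases after the deposited transcript start, read on the gene's strand from NCBIM37, with every CG in capitals. They span chr14:30822033-30822332 (Il17rb), chrX:143838326-143838625 (Il13ra2) and chr7:132695546-132695845 (Il4ra).
Il17rb: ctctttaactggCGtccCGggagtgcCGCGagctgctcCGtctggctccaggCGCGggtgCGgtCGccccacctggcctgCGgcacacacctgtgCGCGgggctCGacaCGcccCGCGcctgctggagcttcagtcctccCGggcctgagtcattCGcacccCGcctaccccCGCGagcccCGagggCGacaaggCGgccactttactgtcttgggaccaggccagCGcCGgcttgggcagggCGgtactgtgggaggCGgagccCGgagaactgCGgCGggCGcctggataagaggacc
Il13ra2: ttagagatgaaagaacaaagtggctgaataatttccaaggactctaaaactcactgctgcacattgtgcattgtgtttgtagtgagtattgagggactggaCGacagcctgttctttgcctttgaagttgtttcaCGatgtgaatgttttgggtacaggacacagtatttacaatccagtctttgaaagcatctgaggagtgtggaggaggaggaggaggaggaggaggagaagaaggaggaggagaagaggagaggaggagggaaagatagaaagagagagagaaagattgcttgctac
Il4ra: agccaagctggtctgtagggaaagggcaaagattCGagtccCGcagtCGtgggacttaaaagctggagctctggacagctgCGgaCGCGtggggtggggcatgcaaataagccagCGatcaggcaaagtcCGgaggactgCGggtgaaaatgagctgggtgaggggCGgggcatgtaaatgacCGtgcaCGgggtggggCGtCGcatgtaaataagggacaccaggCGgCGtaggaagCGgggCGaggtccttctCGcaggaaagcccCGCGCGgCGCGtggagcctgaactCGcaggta

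The Il17rb start held 32 CG pairs and was 72.0% G or C, and that of Il4ra held 25 at 62.0%. The Il13ra2 start held 2 at 44.7%. Of all starts read in the same way, 13.2% held as many CG pairs as Il17rb or more, and 88.6% as many as Il13ra2 or more. The Il17rb sequence is identical to the RefSeq promoter for that gene (GRCm38.p6 table), whereas the RefSeq entries for Il13ra2 and Il4ra hold a different sequence.

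Across the members, CpG-poor starts were common. At least 10 CG pairs were found at 19 of 78 member starts (24.4%), against 57.1% of the 22666 starts that could be read over the table. Among detected genes the shares were 15 of 35 members (42.9%) and 79.5% of all genes. The ligand side held 3 such starts of 38 and the receptor side 16 of 38. Il3ra had the most, 35. The 8 detected ligands ran from 1 (Il1f9) to 19 (Il17d), and 2 of them, Il17d and Il15, had 10 or more. These shares are a description of sequence and carry no test. They also rest on the deposited gene ends being true starts. Of the 77 members found in GENCODE, the deposited start coordinate matched for 44 and the end coordinate for 40.

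In the common gamma chain family 8 of 10 receptor-side genes were detected. That group takes in Il13ra1 and Il13ra2, which are counted with Il4ra although the IL-13 receptor does not use the gamma chain. Without them 6 of 8 were detected. Il2rg, the gamma chain itself, lay at 7.12 and 8.16 RPKM. Il2rb, the signalling chain for IL-2 and IL-15, lay at 5.42 and 6.36 RPKM on 56 and 73 reads. Il15ra, which presents IL-15 to neighbouring cells, lay at 7.23 and 6.51 RPKM. Il21r and Il7r were low, at 2.001 and 1.712 RPKM and at 1.71 and 1.98 RPKM.

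Il15 was at the level of its own receptor chains. It lay at 7.31 and 6.03 RPKM, or 6.67 ± 0.900 RPKM (SD, n = 2), on at least 36 and 33 reads. Its values overlapped those of Il15ra, so no order between ligand and presenting chain can be given. The IL-15 chains Il15ra, Il2rb and Il2rg all lay between 5.42 and 8.16 RPKM. Il2, the other ligand of Il2rb, was listed at 0 in both uteri, which is not read as absence. Il2ra, the high-affinity chain for IL-2, lay at 0.648 and 0.849 RPKM.

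Il9 was the other detected ligand of this family. This T cell and mast cell growth factor lay at 2.43 and 5.26 RPKM, on 5 and 12 reads over a transcript of 536 bases. Its receptor Il9r had at least 1 and 4 reads, or 0.0845 and 0.305 RPKM. Il7, a survival factor for lymphocytes, lay at 1.58 and 0.854 RPKM, above the threshold in uterus 1 alone. The 3 mast cell markers summed to 18.9 and 21.5 RPKM, and their part in the level of Il9 was not tested.

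In the IL-1 family 10 of 20 genes were detected. Il1r1, the signalling receptor for IL-1, lay at 15.5 and 15.3 RPKM, on 300 and 328 reads. The shared accessory chain Il1rap lay at 2.24 and 2.80 RPKM. Il1r2, a decoy that binds IL-1 without signalling, lay at 2.52 RPKM on 13 reads and 1.40 RPKM on 8 reads, below Il1r1 in both uteri.

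The IL-1 ligands were low. Il1b lay at 1.38 RPKM on 7 reads and 1.95 RPKM on 11 reads. Il1a had no read in uterus 1 and 2 in uterus 2, and the antagonist Il1rn lay at 0.388 and 0.349 RPKM on at least 4 reads each. Il1r1 was above these ligands in each uterus. Il1b overlaps Gm14047 and Il1r2 overlaps Gm16894, both of which had means under 1 RPKM.

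The IL-36 arm of the family held 1 detected ligand and its receptor. Il1f9, the gene for IL-36 gamma, lay at 2.85 and 2.996 RPKM, on 18 and 21 reads. Il1rl2, the IL-36 receptor, lay at 9.50 and 5.66 RPKM. The other IL-36 genes were not detected, and a listed 0 among them is not read as absence. Il1f6 and Il1f8 were listed at 0 in both, as was the related Il1f10, and the antagonist Il1f5 lay at 0.134 RPKM in uterus 1, on at least 1 read, and was listed at 0 in uterus 2.

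Il18 was the highest ligand of all members, at 9.94 and 11.7 RPKM, or 10.8 ± 1.22 RPKM (SD, n = 2), on at least 33 and 43 reads. Its soluble inhibitor Il18bp lay at 7.63 and 7.71 RPKM. Its receptor chains were lower: Il18r1 at 1.36 and 3.10 RPKM, and the accessory chain Il18rap at 0.420 and 1.04 RPKM. Il33, a nuclear alarmin, lay at 2.40 and 3.07 RPKM, above its receptor Il1rl1 at 0.562 and 0.944 RPKM.

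These receptor genes lie in a row on chromosome 1 (chr1:40141613-40606142, plus strand), in the order Il1r2, Il1r1, Il1rl2, Il1rl1, Il18r1, Il18rap. Of the 6, 4 were detected. Their means ran from 0.731 to 15.4 RPKM, with Il1r1 and its neighbour Il1rl2 highest. The ligand cluster on chromosome 2 (chr2:24008692-24207011) also holds 6 genes, of which Il1f9 alone was detected.

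**Figure D2:**
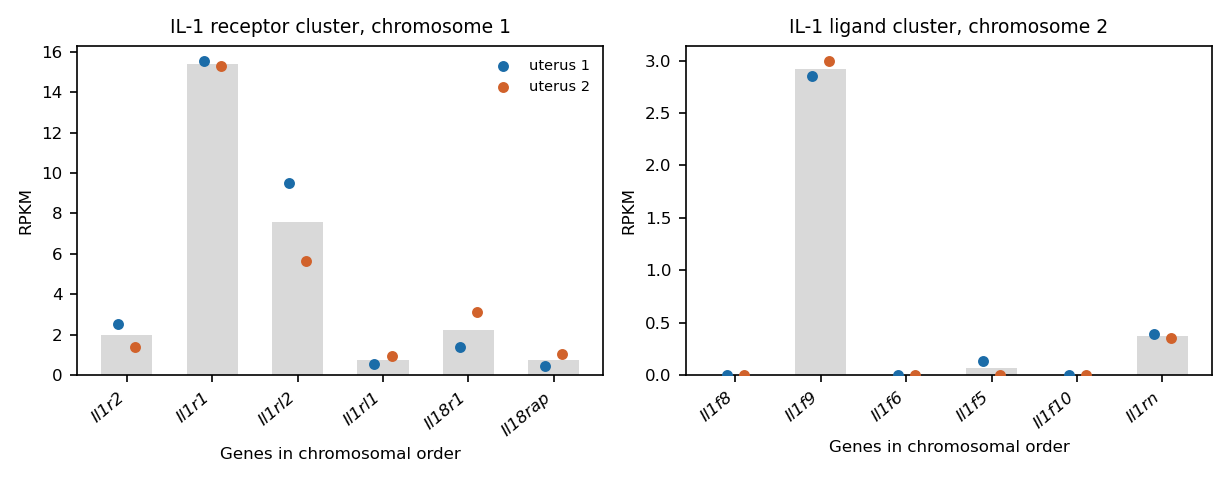
RPKM of the genes in 2 clusters, in chromosomal order, with bars at the mean of both uteri and points for each uterus. Il1r1 stands highest in the receptor cluster, and Il1f9 is the gene above 1 RPKM in the ligand cluster.

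In the IL-10 family no ligand was detected. Il10, Il20, Il22 and Il24 were listed at 0 in both uteri, and Il19 had 1 read in uterus 2. Il10, Il19, Il20 and Il24 form a cluster on chromosome 1. Of the 6 receptor-side genes 3 were detected. Il10rb, a chain shared by several receptors, lay at 13.7 and 13.1 RPKM, and Il10ra, the chain specific to IL-10, at 5.003 and 3.834 RPKM. Il20rb lay at 1.9998 and 1.707 RPKM. Il20ra lay at 0.999 RPKM in uterus 1, just under the threshold, and at 2.36 RPKM in uterus 2. Il22ra1 had at least 7 and 1 reads, and the soluble IL-22 binding protein Il22ra2 had none and 3.

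In the IL-6 and IL-12 families, too, no ligand was detected. Il12a, Il12b and Il31 were listed at 0 in both uteri. Il6 had 3 reads in uterus 1 and none in uterus 2, Il23a 1 and 2, and Il27 none and at least 1 (0.333 RPKM). Of the receptors, Il27ra lay at 2.06 and 3.09 RPKM, Il12rb2 at 1.77 and 2.07 RPKM and Il31ra at 1.85 and 1.86 RPKM. The Il27ra gene overlaps Palm3, which had a mean of 2.17 RPKM, and the use of strand in counting is not given in the sources used here. Il12rb1, the chain common to IL-12 and IL-23 receptors, and Il23r stayed under 1 RPKM in both.

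Il3ra, the IL-3 binding chain, lay at 5.43 and 5.39 RPKM, whereas Il5ra lay at 0.367 and 0.727 RPKM. Il3 was listed at 0, which is not read as absence. The beta chain with which Il3ra and Il5ra signal, Csf2rb, lay at 8.87 and 8.63 RPKM.

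Il16, a chemoattractant for CD4+ cells that is unrelated in sequence to the other families, lay at 8.26 and 9.56 RPKM, on 158 and 203 reads. Il34, the alternative ligand of the CSF-1 receptor, lay at 0.851 and 1.28 RPKM, and that receptor, Csf1r, at 19.4 and 22.9 RPKM.

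The rule also took in 2 genes that are not interleukins. The row named Il8 carries the accession NM_011339, which RefSeq lists as Cxcl15, a chemokine known as lungkine. It lay at 6.62 and 7.401 RPKM on at least 54 and 67 reads, and should not be read as an orthologue of human interleukin 8. Il4i1, an amino acid oxidase induced by IL-4, had 1 read in uterus 1. Its span overlaps Nup62-il4i1 and Tbc1d17, the higher of which had a mean of 15.1 RPKM.

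**Figure D3:**
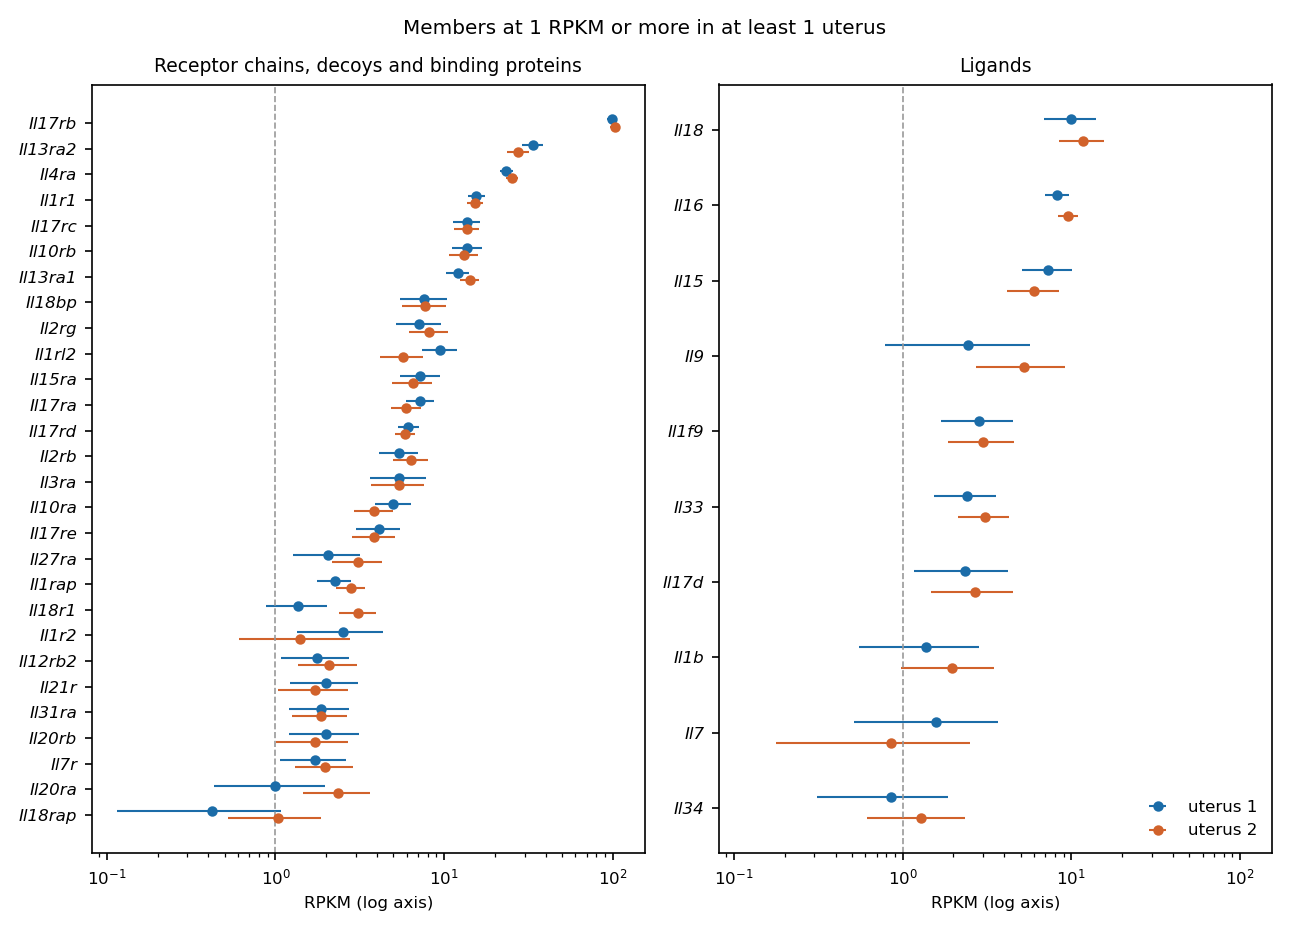
RPKM on a log axis for the members at 1 RPKM or more in at least 1 uterus, receptors and binding proteins on the left and ligands on the right, with 95% Poisson intervals of the recovered reads. Il17rb stands apart at the top, and the intervals of the 2 uteri overlap for all genes shown but Il18r1. Il8 is not drawn.

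In all, 11 receptor-side genes with reads were not detected, most of them described above, with means from 0.138 RPKM (Il1rapl1) to 1.68 RPKM (Il20ra). On the ligand side 16 genes with reads were not detected, from 0.0382 RPKM (Il21) to 1.22 RPKM (Il7). A further 14 ligands and 1 receptor-side gene, Il1rapl2, were listed at 0 in both uteri, together 15 of 78 members, against 23.4% of all genes. Genes that cells in general use, such as Rpl26, are also listed at 0 in this table, so a listed 0 is not read as absence.

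Setting a ligand or antagonist beside a receptor chain that binds it gave 34 pairs. Of the ligand side 4 genes are in no pair: Il6, whose chain is no member, and Il16, Il17d and Il34, of which Il16 and Il17d were detected. In 20 of the 34 pairs the receptor was detected and the ligand was not. Both were detected in 4 pairs: Il1b with Il1r1, Il1f9 with Il1rl2, Il18 with Il18r1, and Il15 with Il15ra. The ligand alone was detected in 2, Il33 with Il1rl1 and Il9 with Il9r, and neither in 8. The ligand had the higher mean in 3 pairs, Il18, Il33 and Il9. In 14 pairs the ligand was listed at 0 in both uteri, so no ratio is given. Of the 20 pairs with ligand reads, 12 had a receptor mean at least 5 times that of the ligand. Several pairs share a receptor chain, so they are not independent of each other.

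**Figure D4:**
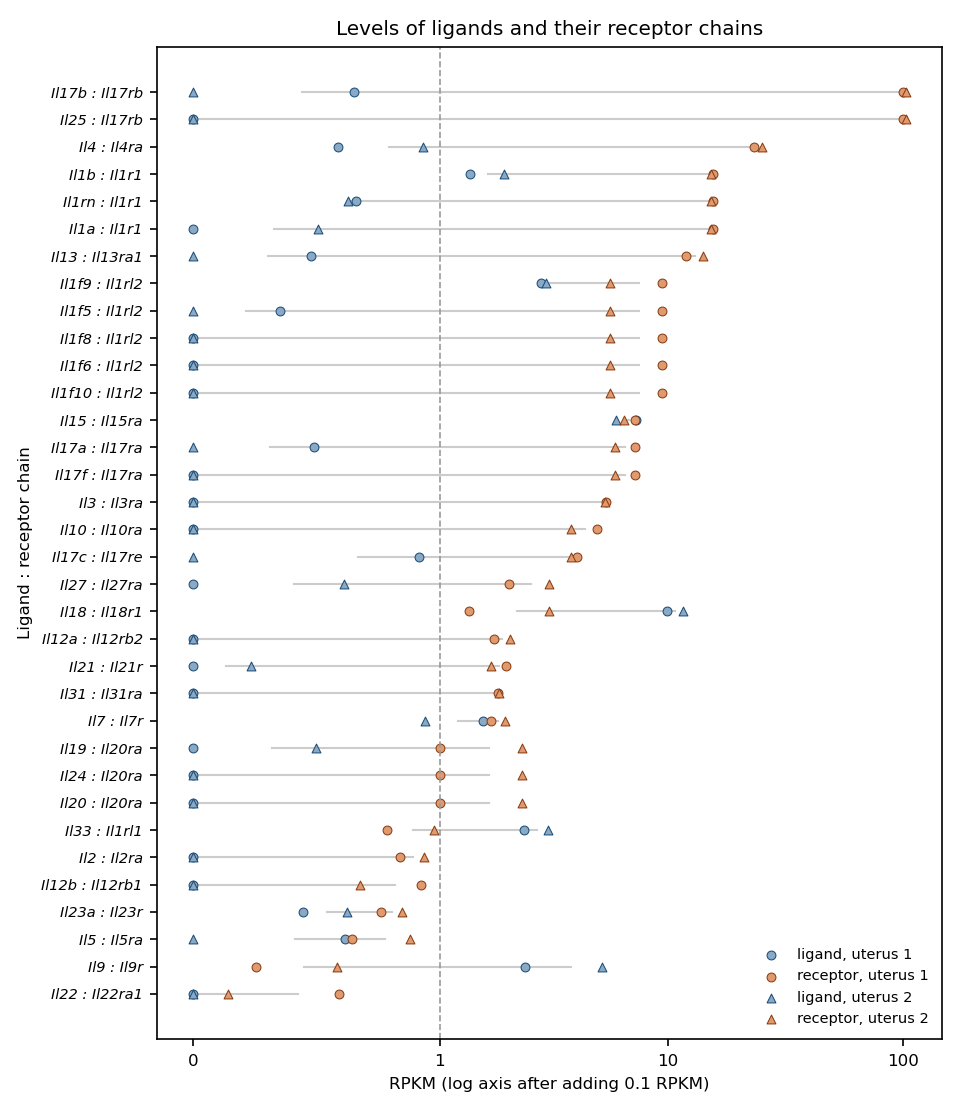
RPKM of each ligand or antagonist in the 34 pairs (blue) and a receptor chain that binds it (orange) in uterus 1 (circles) and uterus 2 (triangles), on a log axis after adding 0.1 RPKM, ordered by the receptor's mean. Most receptor symbols lie to the right of their ligand, with Il18, Il33 and Il9 as the exceptions in mean level.

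Most genes of the machinery shared by these receptors were detected. Of 34 further pathway genes on a chosen list, 31 were detected (91.2%), beside 58.4% of all genes and 61.6% of those with an NM_ identifier. The list was chosen with earlier results of these data known, so these shares are a description and no test. The median of the 34 was 8.89 and 8.91 RPKM, and that of all genes 3.28 and 3.23 RPKM. The kinase Jak1 was highest at 91.9 and 92.9 RPKM, followed by the IL-1 adaptor Myd88 at 77.9 and 89.0 RPKM. Jak2 lay at 59.7 and 74.0 RPKM, Stat3 at 64.4 and 66.3 RPKM and the kinase Irak1 at 33.5 and 28.3 RPKM. Jak2 was the 1 gene called between the libraries among the 33 of the list that were tested (adjusted p 3.26e-06, two-sided exact binomial test, higher in uterus 2), where 4.63% of all genes tested were called. Below the threshold were the inflammasome sensor Nlrp3 and the cytokine genes Tslp and Ebi3, the last at 0.668 and 1.204 RPKM. Crlf2, which pairs with Il7r as the receptor for TSLP, lay at 6.33 and 8.12 RPKM, whereas Tslp had at least 2 reads in each uterus (0.391 and 0.353 RPKM). Sigirr, an inhibitory member of the IL-1 receptor family, lay at 5.11 and 5.79 RPKM.

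The 2 animals were then compared gene by gene. Over the 38 members averaging 1 RPKM or more the median log2 ratio of uterus 2 over uterus 1 was 0.06, with 0.1 RPKM added to each value, beside 0.00067 over all genes. Uterus 2 had the higher value for 23 of them and the lower for 15, while 50.1% of all such genes were higher in uterus 2. At least 2-fold apart were 3 of the 38, against 2.60% of all genes averaging 1 RPKM or more and 4.85% of those between 1 and 10 RPKM. These were Il18r1, Il20ra and Il9, each higher in uterus 2, as were 1.18% of all genes by that margin, and each at a mean under 5 RPKM.

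Il18r1 (chr1:40522466-40548425, plus strand) was the member that passed the adjusted test between the libraries. It had 25 reads in uterus 1 and 63 in uterus 2, a ratio of 2.27 (95% interval 1.41 to 3.77). The two-sided exact binomial test with Benjamini-Hochberg adjustment over 15098 genes gave an adjusted p of 0.0126. Under the other read settings it was 0.0112 (13367 genes) and 0.0169 (14174 genes). The reads of Il18r1 were the same in each setting, so these settings did not test its own count. The test called 4.63% of all genes and 1 of 46 members. At an unadjusted p under 0.05 there were 4 members, against 15.4% of all genes.

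The other 3 did not pass the adjustment in the same exact test. Il1rl2 had 71 and 47 reads, 1.68 times higher in uterus 1 (95% interval 1.14 to 2.48, adjusted p 0.0927). Il20ra had 8 and 21 reads (adjusted p 0.290), and Il22ra1 had at least 7 and 1 (adjusted p 0.255). For Il9, 5 and 12 reads gave an adjusted p of 0.556, so its ratio of 2.16 (95% interval 0.709 to 7.83) was not a detectable difference at this depth.

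Il18rap, the partner chain of Il18r1, had 4 and 11 reads (adjusted p 0.513, exact binomial test), and Stat4, a factor activated by IL-12, had 13 and 33. None of the 3 NK cell and 3 T cell markers was called, and none was at 0. Of the NK cell markers, Klrb1c (1.09 and 1.70 RPKM) and Nkg7 (3.53 and 4.91 RPKM) had the higher value in uterus 2, and Ncr1 (4.99 and 3.69 RPKM) the lower. The 3 general leukocyte markers Ptprc, Cd52 and Coro1a all had higher values in uterus 2, summing to 72.0 and 83.7 RPKM, and none of them was called. Of the 4 macrophage markers, C1qa (61.0 and 80.1 RPKM, adjusted p 0.0235, exact binomial test) was called. Csf1r (19.4 and 22.9 RPKM) was not, nor were Emr1 (19.2 and 17.3 RPKM) and Cd68 (15.3 and 14.2 RPKM), which had the lower value in uterus 2. The summed markers of neutrophils (8.30 and 14.3 RPKM) and B cells (1.99 and 3.66 RPKM) had the higher value in uterus 2. So had those of mast cells (18.9 and 21.5 RPKM) and eosinophils (4.15 and 4.34 RPKM). Those of dendritic cells (9.99 and 7.97 RPKM) had the lower. Single markers went against these sums. Kit of mast cells (8.608 and 7.301 RPKM) and Prg2 of eosinophils (3.112 and 2.804 RPKM) were lower in uterus 2. So were S100a8 of neutrophils and Ms4a1 of B cells. Flt3 of dendritic cells (1.85 and 1.93 RPKM) was higher. Retnlg (6.43 and 11.21 RPKM) made up most of the neutrophil sum. Ly6g and Siglecf, also listed, had no value. None of the markers of these cell types was called, and S100a8, S100a9 and Epx had too few reads to be tested. Markers of other tissue parts were called in both directions by the same test. Krt18 (70.4 and 94.3 RPKM), Dcn (456 and 578 RPKM) and Myh11 (314 and 350 RPKM) were higher in uterus 2. Col1a1 (1184 and 851 RPKM) and Kdr (22.9 and 16.6 RPKM) were lower. So were Acta2 (653 and 592 RPKM) and Pgr (77.5 and 66.4 RPKM). Whether leukocyte number had a part in the Il18r1 ratio was not tested.

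**Figure D5:**
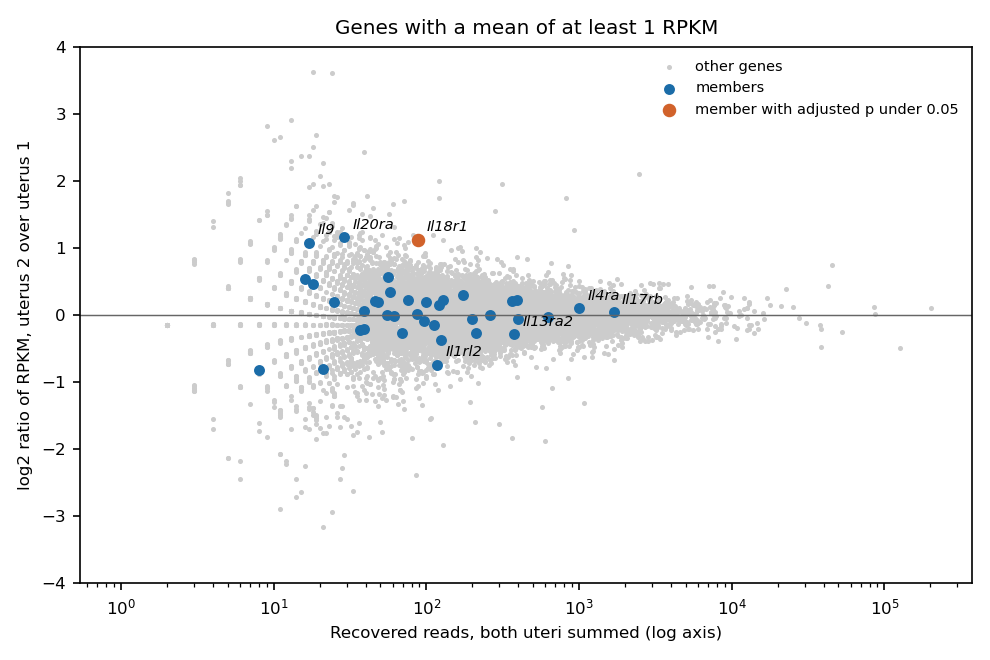
Log2 ratio of RPKM, uterus 2 over uterus 1 after adding 0.1 RPKM, against recovered reads on a log axis, for genes averaging 1 RPKM or more. Members are coloured, Il18r1 in orange has an adjusted p under 0.05, and 24 other genes lie beyond the vertical axis.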

How the data were processed

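Poly-A RNA of whole uterus from 2 mice was sequenced, and per the labels' design text the authors normalized each gene to RPKM. Per the submitters' processing notes, TopHat, edgeR and build mm9 (NCBIM37) were used, with no role given, and the counting program and use of strand are not given in the sources used here. The RPKM of the 22740 genes are equal in the plain and the annotated table. The members and lists were chosen with earlier results of these data known. All members are accounted for, and values of both libraries are given for those detected. Roles and pairs were assigned by textbook knowledge.

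Whole reads were recovered from the deposited RPKM. Values of single-exon genes gave scaling totals of 3834174 and 4256101, with 96.3% and 95.7% of values whole within 0.001 reads. For other genes the smallest reads that gave a whole transcript length were taken. A multiple of them was used where its length lay within 5% of an annotated GENCODE M1 length. Such reads depend on the annotated transcript that was matched, so they can be too low as well. A whole length was found for 17420 of 17426 genes. For 15 members no annotated length was near, so their reads are the smallest possible, given as "at least" where printed: Il1rn, Il1f5, Il18, Il1rap, Il1rapl1, Il22ra1, Il17c, Il27, Il8, Il5ra, Il15, Il7, Il4, Il15ra and Il9r. Libraries were compared by an exact binomial test (SciPy 1.17.1) over genes with at least 6 reads. Intervals are 95% Poisson or exact binomial and cover counting error only. With 1 group no test between conditions exists.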

Additional observations from a re-analysis of the deposited data

How the results depend on the processing

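Counts of detected members, receptors and pathway genes stayed within 1.5 times under each alternative run: thresholds of 0.5 and 2 RPKM, a TPM scale, no filter, either library alone, and at least 10 reads in both (the last, and leaving out Il8 and Il4i1, chosen after seeing the data). Receptor-side counts ran from 19 to 36. Ligand counts ran from 6 to 10, and 13 were above 0 in both libraries. The number at least 2-fold apart, 3, became 0 with a pseudocount of 1 RPKM, 0 at a mean of 5 RPKM, 19 without a filter and 5 on the TPM scale. The median log2 ratio lay between 0 and 0.15. The exact binomial test called Il18r1 under each read setting, though its own reads were the same in each. The test called 0 members at an adjusted p of 0.01, and 4 were at an unadjusted p under 0.05. The median RPKM of all members, 0.853, was 2.70 over those above 0 in both libraries and 2.02 on the TPM scale, which changes the unit. The summed RPKM, 350.9, was 249.8 without Il17rb and 830.3 on the TPM scale. Without either library the median ran from 0.807 to 0.899 and the sum from 348 to 354. Of the members at 1 RPKM or more, 3 of 35 rest on fewer than 10 reads in a library, so depth limits their level. No paired analysis was possible because the design has a single group.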
